A study of Mus musculus with 12 samples.

Results

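The genes described here encode the enzymes of fatty acid synthesis in liver and the proteins that support them: Fasn, Acly, Acaca, Acacb, Me1, Elovl6, Scd1, Thrsp, Mid1ip1 and Slc25a1. Members were the probe sets whose gene symbol in the platform annotation was one of these names, which gave 10 of 18194 genes and 23 of 45101 probe sets. No member probe set carried a second symbol. Liver RNA of mice of the background SV129XC57Bl/6 was hybridised to 12 Affymetrix arrays, with livers of 3 animals pooled on each. The arrays formed 4 groups of 3. Control fasted and control refed livers came from mice labelled control with no tamoxifen label, and LG2KO fasted and LG2KO refed livers came from mice labelled LG2KO and treated with tamoxifen, so that genotype and tamoxifen cannot be told apart. Refed mice were fasted before they were fed. LG2KO is read here as a tamoxifen-induced loss of the hepatic glucose transporter Glut2 (gene Slc2a2), which the labels do not spell out. For LG2KO fasted livers 1 label, the source name, reads fasted/refed, while title and diet read fasted, and the latter were followed. The lengths of fasting and refeeding, the age and sex of the mice, the promoter of the recombinase and the time after tamoxifen are not stated in the labels.

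Fatty acids are built in the cytosol of hepatocytes from citrate that leaves the mitochondrion. Citrate is cleaved to acetyl-CoA, which is carboxylated to malonyl-CoA, and fatty acid synthase joins these units to palmitate at the expense of NADPH. Palmitate is then lengthened and desaturated. In liver the transcripts of this pathway are known to be low in fasting and high after a carbohydrate meal, when insulin acts through the transcription factor SREBP1c (gene Srebf1) and glucose through ChREBP (gene Mlxipl).

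The promoters of 4 members are shown so that 3 members that passed between fasted genotypes, Fasn, Thrsp and Mid1ip1, can be read beside Slc25a1, which passed in none of the 5 comparisons. Each is the stretch of 250 bases before the gene's start in RefSeq (build GRCm38.p6), 5′ to 3′ on the gene's strand, and capitals mark every match on either strand to the CCAAT box (letters CCAAT), the E-box (letters CACGTG) or the GC box (letters GGGCGG). Fasn is at chr11:120824548-120824797 on the minus strand, Thrsp at chr7:97417551-97417800 on the minus strand, Mid1ip1 at chrX:10717115-10717364 on the plus strand and Slc25a1 at chr16:17928220-17928469 on the minus strand.
Fasn: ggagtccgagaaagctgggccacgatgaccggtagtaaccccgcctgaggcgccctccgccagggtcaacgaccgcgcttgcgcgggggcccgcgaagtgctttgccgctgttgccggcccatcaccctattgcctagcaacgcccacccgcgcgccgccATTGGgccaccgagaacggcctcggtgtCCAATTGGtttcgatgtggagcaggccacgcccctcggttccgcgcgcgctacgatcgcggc
Thrsp: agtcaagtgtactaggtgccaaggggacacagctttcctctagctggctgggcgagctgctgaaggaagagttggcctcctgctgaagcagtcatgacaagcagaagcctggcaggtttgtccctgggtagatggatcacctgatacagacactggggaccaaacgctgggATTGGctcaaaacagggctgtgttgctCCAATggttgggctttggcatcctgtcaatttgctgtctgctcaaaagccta
Mid1ip1: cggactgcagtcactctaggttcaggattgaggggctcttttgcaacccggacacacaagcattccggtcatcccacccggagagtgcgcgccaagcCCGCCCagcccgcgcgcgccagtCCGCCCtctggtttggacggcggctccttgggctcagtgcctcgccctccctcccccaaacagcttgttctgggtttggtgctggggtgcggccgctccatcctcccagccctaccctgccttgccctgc
Slc25a1: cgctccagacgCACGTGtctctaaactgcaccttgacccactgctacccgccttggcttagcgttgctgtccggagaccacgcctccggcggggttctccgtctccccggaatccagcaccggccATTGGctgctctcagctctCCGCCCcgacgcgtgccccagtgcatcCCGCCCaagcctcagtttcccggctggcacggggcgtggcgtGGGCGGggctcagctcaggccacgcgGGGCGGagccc
The Fasn stretch held 3 CCAAT boxes, of which 2 overlap on opposite strands, and the Thrsp stretch held 2. The Mid1ip1 stretch held 2 GC boxes and no CCAAT box. The Slc25a1 stretch held 1 E-box, 1 CCAAT box and 4 GC boxes. Promoters were at hand for 9 of the 10 members. In windows that add 50 bases after the start, CCAAT was found in 6 of the 9 members (66.7%) and in 41.1% of all genes, GGGCGG in 4 of 9 (44.4%) and in 38.2% of all genes, and CACGTG in 1 of 9 (11.1%) and in 8.09% of all genes. The element of paired E-boxes bound by ChREBP, the sterol element TCACNCCAC and the LXR element, both strands searched, were not found in any of the 9, and were found in 0%, 1.44% and 0.0148% of all genes. The ChREBP element was searched only as 2 exact E-boxes at a fixed spacing, which no gene held in these windows. Its absence from the members therefore cannot show that they lack a site for ChREBP. The sterol and LXR elements were so rare among all genes that their absence from 9 members says little. Sites with other letters or outside the windows were not searched. A match is a match of letters and not a measured binding site.

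Slc2a2 was lower in LG2KO livers, with a difference of -6.73 ± 0.25 (standard error) on the log2 scale in fasted livers (limma, adjusted p = 5.21e-08) and -7.21 ± 0.25 in refed ones (adjusted p = 2.26e-08). The hepatocyte markers, 9 of 10 measured, had mean log2 levels between 12.64 and 12.94 on all arrays. Control refed replicate 1 and LG2KO fasted replicate 3 stood apart, with correlations of 0.984 to 0.989 to the other arrays of their groups, while the other pairs within groups correlated at 0.994 or more. The 7 measured exocrine pancreas markers had mean levels of 5.49 to 8.26 in control fasted livers, with the highest on replicate 3, and 5.45 to 5.78 in the other groups. The 6 measured adipose tissue markers had mean levels of 5.02 to 5.17 in control fasted, 5.07 to 5.30 in LG2KO fasted, 4.78 to 5.06 in control refed and 5.03 to 5.84 in LG2KO refed livers, with Adipoq, the adipocyte hormone adiponectin, at its highest level, 6.81, on LG2KO refed replicate 2. The part of these cells in the differences below was not tested. In such bulk RNA fewer cells of a type and less RNA per cell cannot be told apart.

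In the fasted state 7 of the 10 genes were higher in LG2KO than in control livers, namely Fasn, Acly, Acaca, Me1, Elovl6, Thrsp and Mid1ip1, and 0 were lower. Of all 18194 genes 0.396% passed in that comparison (0.308% higher and 0.0879% lower). The differences of the members ran from -0.10 to 1.98 on the log2 scale with a median of 1.11, against a median of -0.004 over all genes. In refed livers 0 of the 10 passed (limma), where 0.379% of all genes did (0.291% higher and 0.0879% lower). There 4 of the 10 members and 9.13% of all genes had an unadjusted p below 0.05, and the median was 0.30 over the members and 0.02 over all genes. After refeeding the same number, 7 of 10, rose in control livers, where 6.46% of all genes passed (3.29% higher and 3.17% lower), and 2 of 10, Fasn and Mid1ip1, rose in LG2KO livers, where 7.05% did (4.66% higher and 2.4% lower). These comparisons share arrays, so that one low group enters more than 1 of them. Values are given below in the order of replicates 1, 2 and 3, as log2 expression made by RMA (a method that corrects background, brings arrays to a common distribution and summarises each probe set). Differences carry standard errors from limma, adjusted p-values are Benjamini-Hochberg values over all genes, and passing means an adjusted p below 0.05.

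**Figure D1:**
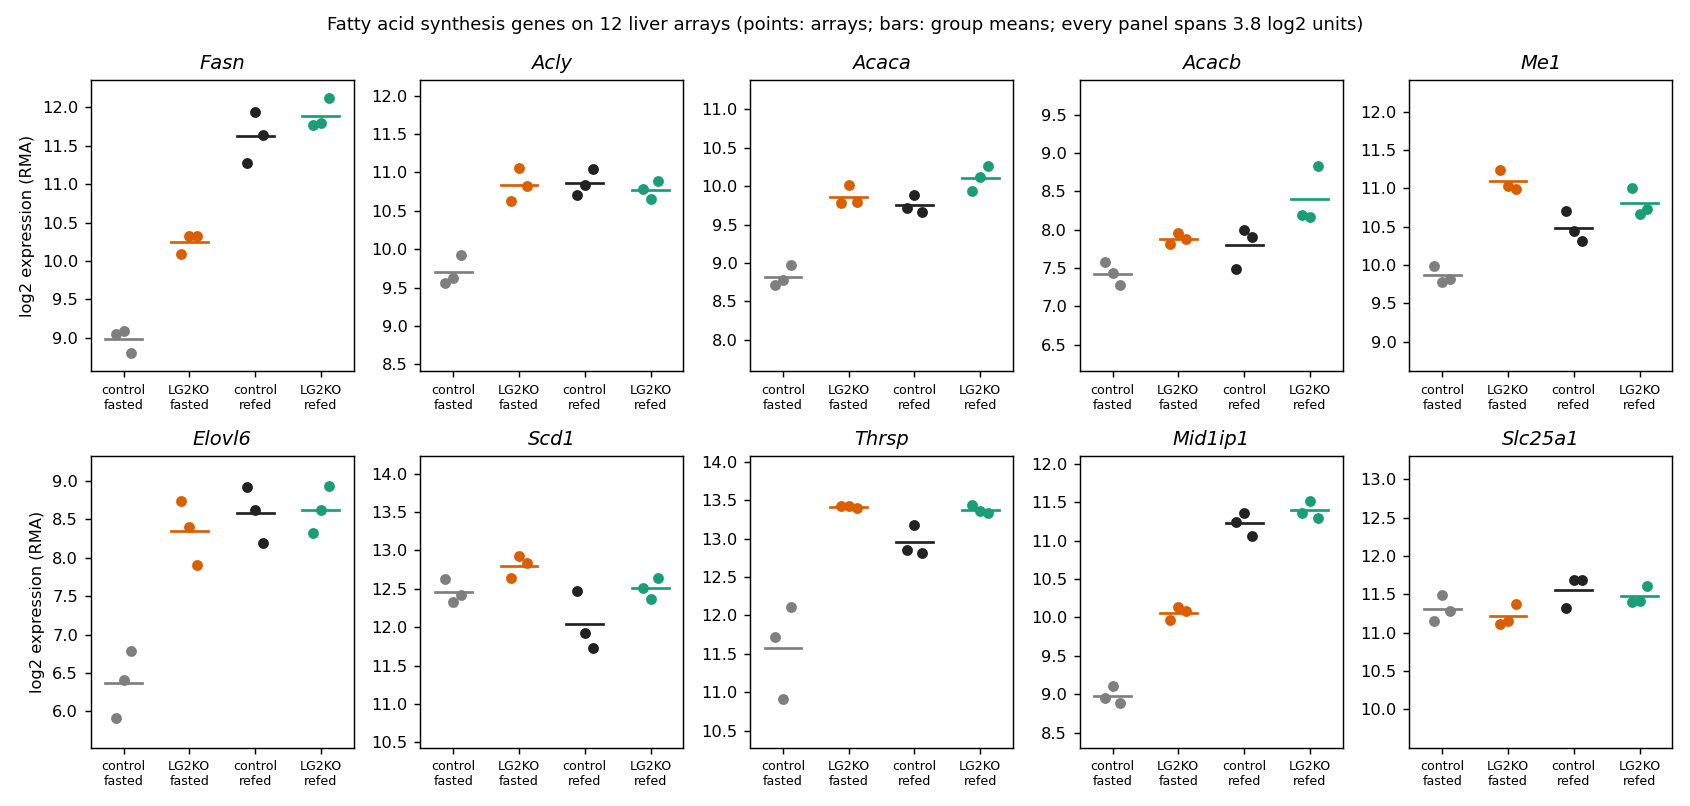
Log2 expression of the 10 genes on each of the 12 arrays, by group, with bars at group means (n = 3 pools each). Control fasted livers lie lowest for Fasn, Acly, Acaca, Me1, Elovl6, Thrsp and Mid1ip1, and for Slc25a1 the genotypes overlap in both feeding states.

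The supply of carbon and reducing power begins with Slc25a1, the mitochondrial citrate carrier. Its level was 11.16, 11.49 and 11.29 in control fasted livers and 11.12, 11.15 and 11.37 in LG2KO fasted livers. In refed livers it was 11.32, 11.68 and 11.68 in controls and 11.40, 11.41 and 11.60 in LG2KO. The genotypes overlapped in both feeding states, and all LG2KO refed arrays lay above all LG2KO fasted arrays. The difference of LG2KO from control was -0.10 ± 0.12 in the fasted state (adjusted p above 0.99, 95% interval -0.36 to 0.16) and -0.09 ± 0.12 in the refed state (adjusted p = 0.871, 95% interval -0.34 to 0.17). With refeeding it was 0.25 ± 0.12 higher in controls (adjusted p = 0.323) and 0.26 ± 0.12 higher in LG2KO (adjusted p = 0.265), neither of which passed. Without the arrays that stand apart both refeeding differences passed, at 0.37 (adjusted p = 0.0271) and 0.34 (adjusted p = 0.0294).

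Acly, the ATP citrate lyase that splits cytosolic citrate, was at 9.56, 9.62 and 9.93 in control fasted livers and at 10.63, 11.06 and 10.82 in LG2KO fasted livers. After refeeding it was at 10.71, 10.84 and 11.04 in controls and at 10.78, 10.65 and 10.89 in LG2KO. All control fasted arrays lay below all others, and the other 3 groups overlapped. Acly was 1.14 ± 0.13 higher in fasted LG2KO livers (2.20-fold, adjusted p = 0.00237) and differed by -0.09 ± 0.13 in refed ones (adjusted p = 0.880, 95% interval -0.38 to 0.20). It rose by 1.16 ± 0.13 with refeeding in controls (adjusted p = 0.000206). In LG2KO the change with refeeding was -0.07 ± 0.13 (adjusted p = 0.904, 95% interval -0.35 to 0.22).

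Me1, the cytosolic malic enzyme that yields NADPH, was at 9.99, 9.79 and 9.82 in control fasted livers and at 11.25, 11.04 and 10.99 in LG2KO fasted livers. In refed livers it was at 10.70, 10.45 and 10.31 in controls and at 11.01, 10.67 and 10.73 in LG2KO. By this probe set all LG2KO fasted arrays lay above all control refed arrays. By the dimmer Me1 probe set these groups overlapped, at 10.46, 10.04 and 9.59 in LG2KO fasted and 10.15, 9.50 and 9.18 in control refed livers, and the refed genotype difference was -0.08 ± 0.24. Me1 was 1.22 ± 0.12 higher in fasted LG2KO livers (2.34-fold, adjusted p = 0.000652) and 0.32 ± 0.12 higher in refed ones, which did not pass (adjusted p = 0.420). Refeeding raised it by 0.62 ± 0.12 in controls (1.53-fold, adjusted p = 0.00822), while the change in LG2KO was -0.29 ± 0.12 (adjusted p = 0.220).

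The carboxylases make malonyl-CoA. Acaca, acetyl-CoA carboxylase 1, is cytosolic and feeds synthesis, while Acacb, acetyl-CoA carboxylase 2, sits at the mitochondrion, where malonyl-CoA holds back the entry of fatty acids for oxidation. Acaca was at 8.71, 8.78 and 8.97 in control fasted livers and at 9.78, 10.01 and 9.80 in LG2KO fasted livers. After refeeding it was at 9.71, 9.89 and 9.67 in controls and at 9.93, 10.11 and 10.26 in LG2KO, so that the refed genotypes did not overlap either. The fasted difference was 1.04 ± 0.11 (2.06-fold, adjusted p = 0.00142). The refed difference of 0.35 ± 0.11 did not pass (adjusted p = 0.315, 95% interval 0.10 to 0.59). Acaca rose by 0.94 ± 0.11 with refeeding in controls (adjusted p = 0.000333) and was 0.24 ± 0.11 higher with refeeding in LG2KO (adjusted p = 0.294).

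Acacb did not pass in any of the 5 comparisons. Its fasted genotype difference was smaller than those of the 7 members that passed there. Its refed genotype difference was the largest estimate of the 10 by the probe sets that stand for the genes. Acacb was at 7.58, 7.43 and 7.28 in control fasted livers and at 7.81, 7.96 and 7.88 in LG2KO fasted livers. In refed livers it was at 7.48, 8.002 and 7.90 in controls and at 8.19, 8.17 and 8.83 in LG2KO. LG2KO arrays lay above control arrays in both feeding states, with LG2KO refed replicate 3 the highest of all. The genotype differences were 0.45 ± 0.18 in fasted livers (adjusted p = 0.837, 95% interval 0.06 to 0.85) and 0.60 ± 0.18 in refed livers (adjusted p = 0.263, 95% interval 0.20 to 0.998). With refeeding it was 0.37 ± 0.18 higher in controls (adjusted p = 0.358) and 0.51 ± 0.18 higher in LG2KO (adjusted p = 0.130). Over the alternatives the refed genotype difference ran from 0.35, the mean of both probe sets, to 0.71.

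Mid1ip1 and Thrsp encode small related proteins that act on lipid synthesis, and Mid1ip1 promotes the assembly of acetyl-CoA carboxylase into active filaments. Mid1ip1 was at 8.95, 9.11 and 8.88 in control fasted livers and at 9.96, 10.13 and 10.08 in LG2KO fasted livers. It was at 11.25, 11.37 and 11.06 in control refed and at 11.36, 11.52 and 11.30 in LG2KO refed livers. LG2KO fasted arrays lay between the control fasted arrays and all refed arrays, with no overlap. The fasted genotype difference was 1.08 ± 0.10 (2.11-fold, adjusted p = 0.000369) and the refed one 0.17 ± 0.10 (adjusted p = 0.669). Mid1ip1 rose with refeeding by 2.24 ± 0.10 in controls (4.74-fold, adjusted p = 4.17e-07) and by 1.33 ± 0.10 in LG2KO (2.52-fold, adjusted p = 1.05e-05).

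Thrsp was at 11.72, 10.91 and 12.11 in control fasted livers, the widest spread of any group among the members, with an SD of 0.61. It was at 13.43, 13.43 and 13.40 in LG2KO fasted livers, with an SD of 0.02. Refed livers were at 12.85, 13.18 and 12.82 in controls and at 13.44, 13.36 and 13.34 in LG2KO. All LG2KO arrays, fasted or refed, lay above all control refed arrays. The fasted genotype difference was 1.84 ± 0.22 (3.58-fold, adjusted p = 0.00237) and the refed one 0.43 ± 0.22 (adjusted p = 0.605, 95% interval -0.04 to 0.90). Thrsp rose with refeeding by 1.37 ± 0.22 in controls (2.59-fold, adjusted p = 0.00202). In LG2KO the change was -0.04 ± 0.22 (adjusted p = 0.970, 95% interval -0.51 to 0.43).

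Fasn, the multifunctional synthase that makes palmitate, had the largest response to refeeding of the 10 genes by the fit. It was at 9.05, 9.09 and 8.80 in control fasted livers and at 10.09, 10.32 and 10.33 in LG2KO fasted livers. After refeeding it was at 11.28, 11.95 and 11.65 in controls and at 11.77, 11.79 and 12.12 in LG2KO. LG2KO fasted livers again lay between control fasted and control refed livers with no overlap. The genotype difference was 1.27 ± 0.16 in the fasted state (2.41-fold, adjusted p = 0.00287) and 0.27 ± 0.16 in the refed state (adjusted p = 0.661). Refeeding raised Fasn by 2.64 ± 0.16 in controls (6.25-fold, adjusted p = 2.00e-06) and by 1.65 ± 0.16 in LG2KO (3.13-fold, adjusted p = 5.86e-05).

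**Figure D2:**
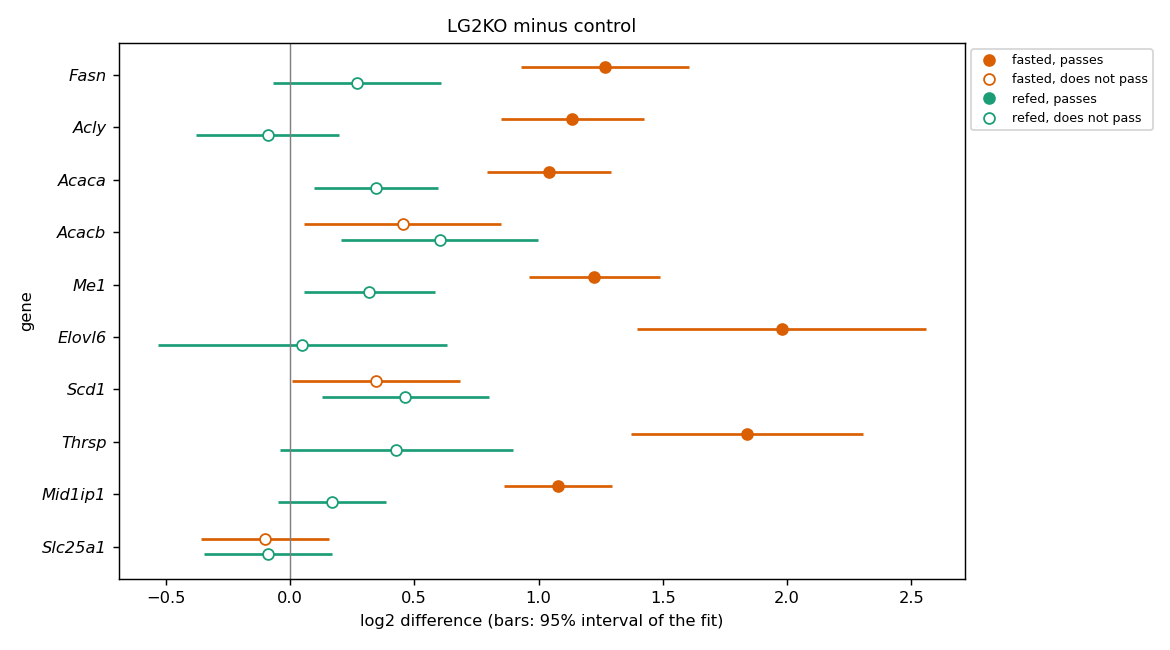
Log2 difference of LG2KO from control livers for the 10 genes, in fasted and refed livers, with 95% intervals from the fit over 12 arrays; filled points have an adjusted p below 0.05. In the fasted state 7 genes passed and in the refed state 0 did, and all refed estimates lie between -0.09 and 0.60.

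Elovl6, which lengthens palmitate to stearate, was at 5.91, 6.41 and 6.79 in control fasted livers and at 8.74, 8.40 and 7.91 in LG2KO fasted livers. In refed livers it was at 8.92, 8.62 and 8.19 in controls and at 8.32, 8.62 and 8.94 in LG2KO. The control fasted arrays lay below every other array and the remaining groups overlapped. Its fasted genotype difference of 1.98 ± 0.27 (3.94-fold, adjusted p = 0.00555) was the largest estimate among the 10, and its refed difference was 0.05 ± 0.27 (adjusted p = 0.973, 95% interval -0.53 to 0.63). Elovl6 rose by 2.21 ± 0.27 with refeeding in controls (4.62-fold, adjusted p = 0.000329) and was 0.28 ± 0.27 higher with refeeding in LG2KO (adjusted p = 0.716).

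Scd1, the desaturase that turns stearate into oleate, was read by a bright and a dimmer probe set, and the brighter one stands for the gene. By the brighter one Scd1 was at 12.62, 12.33 and 12.42 in control fasted livers and at 12.65, 12.92 and 12.84 in LG2KO fasted livers. It was at 12.47, 11.93 and 11.74 in control refed and at 12.51, 12.37 and 12.64 in LG2KO refed livers. Control refed replicate 1 lay above the other arrays of its group, within the range of the LG2KO refed arrays. The genotype differences of 0.35 ± 0.16 in fasted livers (adjusted p = 0.939) and 0.46 ± 0.16 in refed livers (adjusted p = 0.324) did not pass. Refeeding gave -0.41 ± 0.16 in controls (adjusted p = 0.171) and -0.29 ± 0.16 in LG2KO (adjusted p = 0.368). Without control refed replicate 1 the refed genotype difference passed at 0.68 (adjusted p = 0.0398), and the refeeding difference of controls passed at -0.63 (adjusted p = 0.00430).

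The dimmer Scd1 probe set gave larger genotype differences. It was at 7.98, 6.99 and 7.40 in control fasted livers and at 8.34, 8.44 and 8.77 in LG2KO fasted livers. In refed livers it was at 7.78, 7.62 and 7.63 in controls and at 8.80, 9.12 and 9.14 in LG2KO, so that LG2KO arrays lay above control arrays in both feeding states. In a fit over the 34958 probe sets with 1 symbol, of which 0.174% passed, the refed difference was 1.34 ± 0.21 (adjusted p = 0.0286), the only one of the 23 member probe sets that passed in refed livers. The fasted difference was 1.06 ± 0.21 (adjusted p = 0.0802). Averaging both probe sets of the gene gave a refed difference of 0.90 (adjusted p = 0.0439). With refeeding the dimmer probe set gave 0.22 ± 0.21 in controls (adjusted p = 0.756) and 0.50 ± 0.21 in LG2KO (adjusted p = 0.252). Neither passed, and both were opposite in sign to the changes by the brighter probe set, so the direction of Scd1 with refeeding depends on the probe set.

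Brighter and dimmer probe sets of the other genes were compared in the same fit. In fasted livers 12 of the 23 member probe sets were higher in LG2KO and 0 lower, against 0.246% of all probe sets that passed. These 12 included the 3 Acly probe sets with mean levels of 8.61, 10.47 and 10.54, which were higher by 0.99 ± 0.14, 1.07 ± 0.12 and 1.14 ± 0.13. The other 3 Acly probe sets had mean levels of 2.41 to 3.52 and differences of 0.03 to 0.14. Both Me1 probe sets passed, at 1.22 ± 0.12 and 1.42 ± 0.24, as did the brighter pair for Elovl6, at 1.98 ± 0.27 and 1.65 ± 0.23, and the brighter pair for Thrsp, at 1.84 ± 0.21 and 2.27 ± 0.23. The dimmest Thrsp probe set, with a mean level of 6.80, was at 0.31 ± 0.17 and did not pass. The second Acaca probe set, with a mean level of 4.22, was at 0.23 ± 0.13, and the second Acacb probe set, with a mean level of 4.87, at 0.05 ± 0.15. The dimmest Elovl6 probe set, with a mean level of 4.66, was at 0.63 ± 0.25. Fasn, Mid1ip1 and Slc25a1 were read by 1 probe set each. Averaging all probe sets of a gene lowered the fasted difference of Acly to 0.57 and that of Acaca to 0.63, and the control refeeding difference of Acly to 0.75 and that of Elovl6 to 1.38, which all still passed. With refeeding 12 of the 23 rose in controls, against 4.79% of all probe sets that passed, and 2 rose in LG2KO, against 5.03%.

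**Figure D3:**
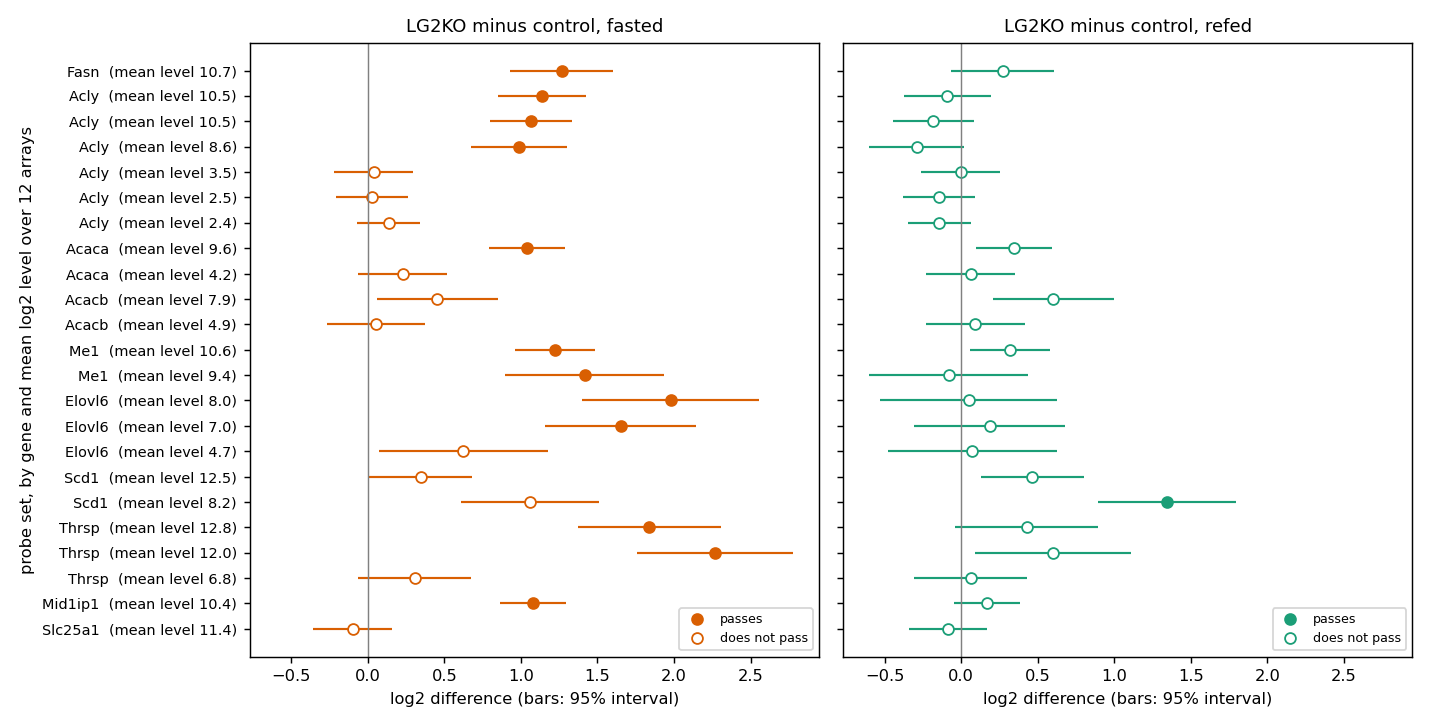
Log2 difference of LG2KO from control for all 23 member probe sets in fasted (left) and refed livers (right), labelled by gene and mean log2 level over 12 arrays, with 95% intervals; filled points passed. In fasted livers 12 passed, and in refed livers the dimmer Scd1 probe set did, at 1.34.

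The response to refeeding was set side by side between genotypes and its difference was tested as the interaction of genotype and feeding. Of the 10 genes 0 passed that test (limma), where 0.0055% of all genes did. An unadjusted p below 0.05 was found for 7 of the 10 and for 4.73% of all genes. These 7, the genes that passed in the fasted genotype comparison, had interaction estimates between -1.93 and -0.70, which places each of them among the lowest 1% of all genes. The interaction equals the refed genotype difference minus the fasted one, so a high fasted difference by itself lowers it. That place is therefore not independent of the fasted comparison. The estimate for Elovl6 was -1.93 ± 0.38 (adjusted p = 0.265, 95% interval -2.75 to -1.10), for Thrsp -1.41 ± 0.30 (adjusted p = 0.407) and for Acly -1.23 ± 0.19 (adjusted p = 0.130). Fasn, Mid1ip1, Me1 and Acaca were at -0.995 ± 0.22, -0.91 ± 0.14, -0.91 ± 0.17 and -0.70 ± 0.16. With the mean of all probe sets of a gene the estimate was -0.71 for Acly and -0.43 for Acaca. Acacb, Scd1 and Slc25a1 were at 0.15 ± 0.26, 0.12 ± 0.22 and 0.01 ± 0.17. Of the 23 member probe sets 0 passed either (limma), against 0.00858% of all probe sets, and 12 of the 23 had an unadjusted p below 0.05, as did 4.31% of all probe sets. The gene that passed was liver pyruvate kinase, Pklr, at -1.75 ± 0.16 (adjusted p = 0.00240). With array weights, a setting that counts noisy arrays less, Fasn, Acly, Elovl6 and Mid1ip1 passed (adjusted p = 0.0306, 0.0130, 0.0319 and 0.0248). Over the alternatives 1 to 20 of all genes passed the interaction.

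**Figure D4:**
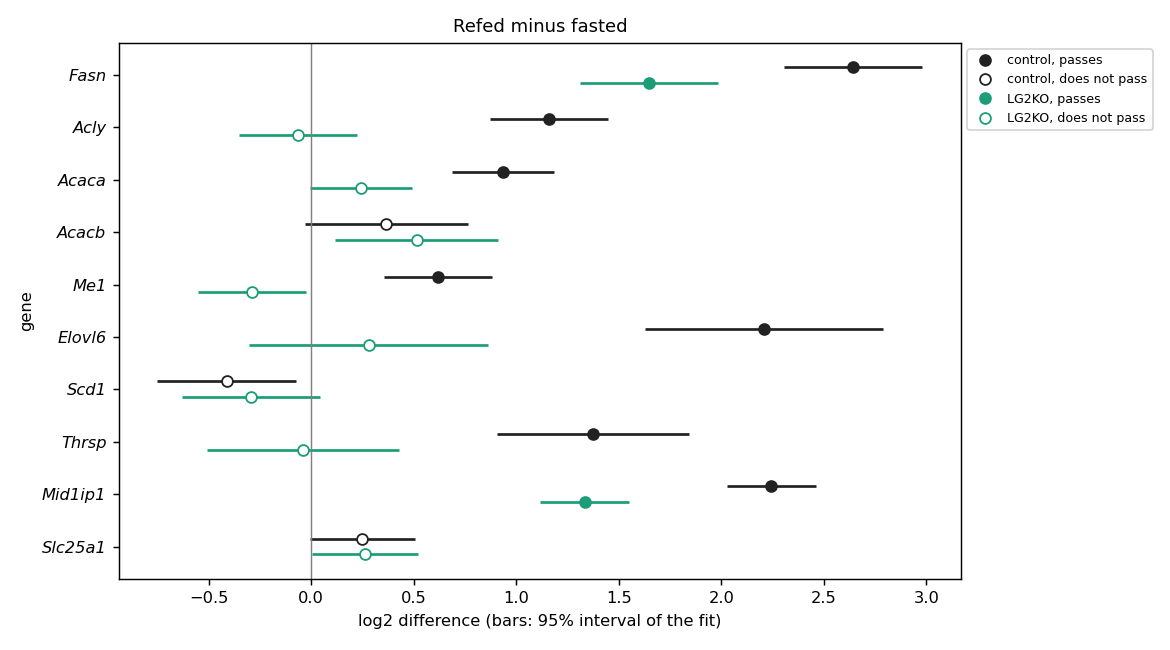
Log2 difference of refed from fasted livers for the 10 genes in control and LG2KO mice, with 95% intervals; filled points passed. In controls 7 genes passed, and in LG2KO Fasn and Mid1ip1 passed at 1.65 and 1.33.

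Transcripts around the pathway were read from lists of regulators, carbon and NADPH supply, later chain modification, esterification, enzyme modification, the separate mitochondrial fatty acid synthesis and fatty acid oxidation. Of 13 measured lipogenic regulators 2 were higher in fasted LG2KO livers and 0 lower, with a list median of -0.10. Those 2 were Srebf1, at 0.62 ± 0.10 (adjusted p = 0.0184), and Bhlhe40, a transcriptional repressor of the clock, at 0.70 ± 0.13 (adjusted p = 0.0358). Mlxipl was at 0.28 ± 0.13 (adjusted p = 0.984). In refed livers Srebf1 passed, at 0.89 ± 0.10 (adjusted p = 0.00499), and Mlxipl was at 0.08 ± 0.13 (adjusted p = 0.902). In controls 6 of the 13 rose with refeeding and 1 was lower. Among them Srebf1 rose by 1.38 ± 0.10, Insig1, which holds the sterol regulators back in the endoplasmic reticulum, by 1.93 ± 0.23, Bhlhe40 by 1.01 ± 0.13 and Mlxipl by 0.60 ± 0.13. In LG2KO 4 rose and 1 was lower, with Srebf1 at 1.65 ± 0.10, Insig1 at 2.21 ± 0.23 and the oxysterol receptor gene Nr1h3 at 0.67 ± 0.10. Mlxipl was at 0.39 ± 0.13 there and did not pass (adjusted p = 0.105). The interaction was 0.27 ± 0.14 for Srebf1 and -0.20 ± 0.19 for Mlxipl, and neither passed.

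Of 15 measured genes of carbon and NADPH supply 3 were higher in fasted LG2KO livers and 0 lower, and the list median was 0.23. Pklr was higher by 1.92 ± 0.12, the transketolase gene Tkt of the pentose phosphate pathway by 0.52 ± 0.09 and pyruvate carboxylase, Pcx, by 0.40 ± 0.07. Acss2, which makes acetyl-CoA from acetate, was at 0.08 ± 0.14 and did not pass. In refed livers 1 of the 15 passed, Pcx, at 0.60 ± 0.07 (adjusted p = 0.00499). Pklr was at 0.17 ± 0.12 (adjusted p = 0.714) and Acss2 at -0.29 ± 0.14 (adjusted p = 0.582) between refed genotypes. Refeeding raised 4 of the 15 in controls, among them Pklr by 0.92 ± 0.12 and Pgd, a source of NADPH, by 0.82 ± 0.14, and lowered 2, among them Pdk2, which fell by 0.82 ± 0.13. In LG2KO 1 rose and 3 fell with refeeding. Pklr fell by 0.82 ± 0.12 there, Pdk1, a kinase that inactivates pyruvate dehydrogenase, fell by 1.19 ± 0.22 and Pdk2 fell by 0.56 ± 0.13. With refeeding Acss2 was at 0.10 ± 0.14 in controls and -0.27 ± 0.14 in LG2KO, and neither passed.

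In fasted livers 0.396% of all genes passed between genotypes, so that lists of this size would hold few or none at that share. None of the other lists held a gene that passed there. These were 19 genes of later elongation and desaturation (median -0.04), 19 of esterification and storage (median -0.02), 13 that modify the carboxylases and the synthase or respond to their product (median -0.07), 8 of mitochondrial fatty acid synthesis (median -0.02) and 17 of fatty acid oxidation (median -0.15). In refed livers 1 gene of the esterification list was higher, the lipid droplet gene Pnpla3 at 1.03 ± 0.15, and 1 of the enzyme modification list, Trib3 at 0.71 ± 0.13 (adjusted p = 0.0405). Cpt1a, the entry step of fatty acid oxidation that malonyl-CoA inhibits, was at -0.16 ± 0.11 between fasted genotypes and -0.04 ± 0.11 between refed ones. With refeeding Cpt1a fell by 1.30 ± 0.11 in controls and fell by 1.18 ± 0.11 in LG2KO.

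The changes with refeeding in these lists were counted in each genotype. Of all genes 3.29% rose and 3.17% fell in controls, and 4.66% rose and 2.4% fell in LG2KO. In controls 6 of 19 esterification and storage genes fell and 1 rose, with Pnpla2, the main triglyceride lipase, falling by 1.37 ± 0.10 and Lpin1 and Plin4 at -1.53 ± 0.18 and -1.37 ± 0.18. In LG2KO also 6 fell, with Lpin1 at -2.15 ± 0.18 and Pnpla2 at -1.01 ± 0.10, and 2 rose, with Pnpla3 at 0.92 ± 0.15. Of the 13 enzyme modification genes 3 fell and 1 rose in controls, with Trib3 at -1.43 ± 0.13 and the acyl-CoA binding protein Dbi at 0.39 ± 0.09, and 2 fell in LG2KO, with Trib3 at -0.64 ± 0.13. The elongase Elovl1 rose by 0.76 ± 0.13 in controls and by 0.85 ± 0.13 in LG2KO, 1 of 2 genes that rose in its list in controls, with the reductase Cyb5r3 at 0.35 ± 0.07, and the 1 that rose in LG2KO. In fatty acid oxidation 1 of 17 genes fell in each genotype, the carnitine carrier Slc25a20, at -0.60 ± 0.08 in controls and -0.58 ± 0.08 in LG2KO. Of the 8 mitochondrial synthesis genes 0 passed in controls (limma) and Mcat rose in LG2KO, by 0.44 ± 0.11 (adjusted p = 0.0377).

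**Figure D5:**
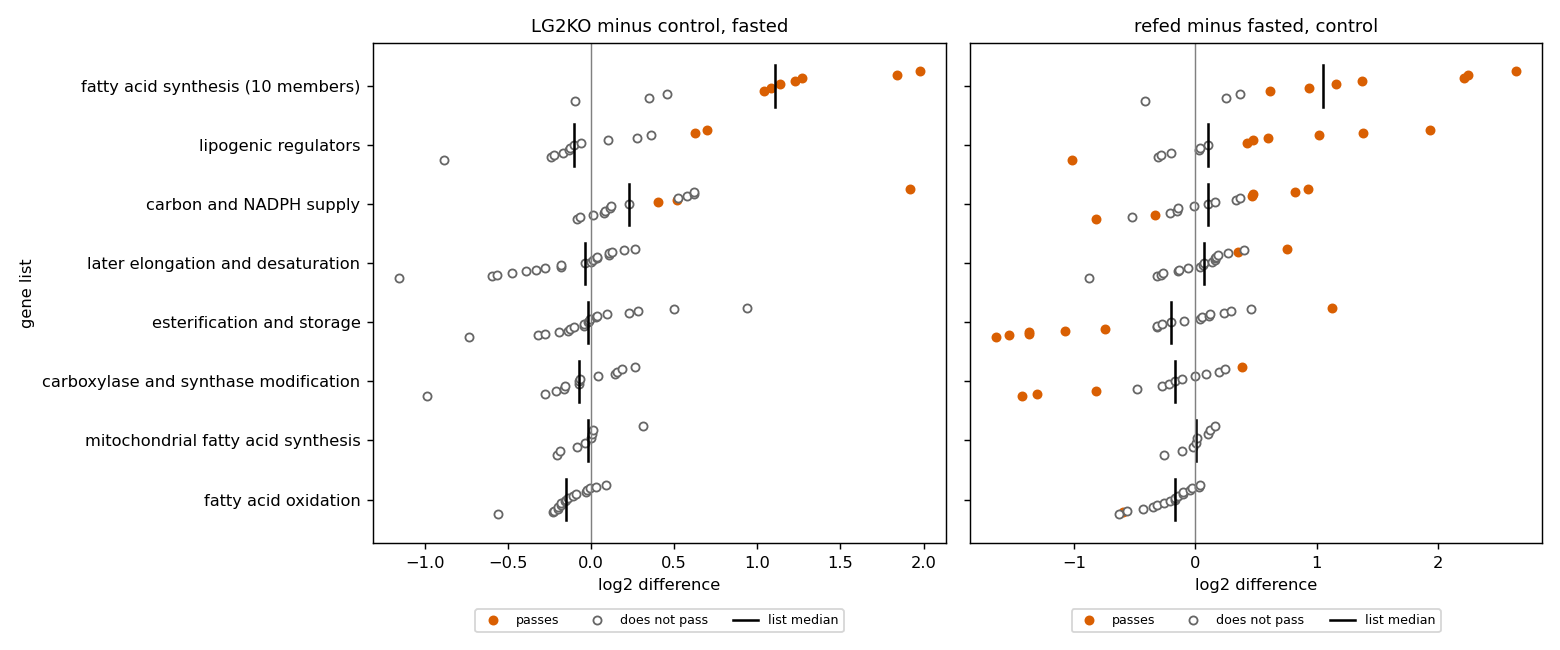
Log2 differences of single genes (points) and list medians (bars) for fatty acid synthesis and 7 related lists, LG2KO minus control in fasted livers (left) and refed minus fasted in controls (right); filled points passed. The median of fatty acid synthesis lies at 1.11 on the left and 1.05 on the right.

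The genes whose pattern was nearest to that of the members were found by the root mean square difference over the 12 arrays, after each gene was centred on its mean, from the median of the 10 centred members. Among 9087 other genes with a mean above the median of all genes that difference had a median of 0.54. The nearest 8 genes were Ces2g, a carboxylesterase, at 0.20, Pgd at 0.22, Bhlhe40 and the actin gene Actg1 at 0.25, Sec61b, of the protein channel of the endoplasmic reticulum, at 0.26, and Pnpla7, Anxa2 and Dnph1 at 0.27. The members themselves lay between 0.05, for Acaca, and 0.78, for Fasn. Fasn, Mid1ip1 at 0.60 and Scd1 at 0.59 lay farther from the members' median values than the median of the other genes. The values were not scaled, so this measure counts the size of a change as well as its direction. With refeeding in controls Fasn was at 2.64, Mid1ip1 at 2.24 and Scd1 at -0.41, against a member median of 1.05. Ces2g had group means of 7.53 in control fasted, 8.55 in LG2KO fasted, 8.40 in control refed and 8.65 in LG2KO refed livers. The 8 genes were chosen by their values on these same arrays, so their tests are not independent of that choice. Between fasted genotypes, where 0.396% of all genes passed, Ces2g, Bhlhe40, Actg1 and Sec61b passed. Pgd, Pnpla7, Anxa2 and Dnph1 did not. With refeeding in LG2KO Actg1, Sec61b, Pnpla7 and Anxa2 rose, by 0.63 ± 0.08, 0.56 ± 0.06, 0.55 ± 0.13 and 0.79 ± 0.12. Ces2g, Pgd, Bhlhe40 and Dnph1 did not pass there.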

How the data were processed

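The deposited table holds a log2 expression value for each probe set on each array, which the authors made with RMA, per the submitters' processing notes. Its software version and genome build: not given in the sources used here. Of 45101 probe sets 34958 had 1 gene symbol in the platform annotation, 932 had several and were left out, and 9211 are unnamed here. The probe set with the highest mean represented each gene, giving 18194 genes. RMA brings all arrays to a common distribution, so differences are relative to the other genes of an array. No filter on dim genes was applied.

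The model was fitted in limma 3.58.1 (R 4.3.3; lmFit, then eBayes with trend) to all 12 arrays, a mean for each group, leaving 8 residual degrees of freedom. P-values were two-sided, with Benjamini-Hochberg adjustment over genes in each of 5 comparisons. They reflect the spread between pools of 3 animals, and 3 arrays a group limit the precision. All members are named, and of each related list up to 3 genes with the smallest p among those that passed, along with Srebf1, Mlxipl, Pklr, Acss2 and Cpt1a. The fit was tested on simulated data. Members, lists and alternatives were chosen with earlier results of these data known. Promoter sequences are from RefSeq.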

Additional observations from a re-analysis of the deposited data

How the results depend on the processing

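In 22 alternatives (21 for the interaction), 12 of which left out 1 array each, the 7 members that passed between fasted genotypes and the 7 that rose with refeeding in controls passed each time. The number of members passing after leaving out 1 array ran from 0 to 1 between refed genotypes (1 without control refed replicate 1), 7 to 7 between fasted genotypes, 7 to 8 for refeeding in controls, 2 to 2 in LG2KO and 0 to 0 for the interaction. Between refed genotypes 1 member, Scd1, passed with array weights, with the mean of all probe sets, and without control refed replicate 1 and LG2KO fasted replicate 3 together. For refeeding in LG2KO 5 members passed with array weights. Besides Fasn and Mid1ip1 these were Acacb at 0.46 and Slc25a1 at 0.31, both higher, and Scd1 at -0.35, lower. For refeeding in controls 9 passed with array weights, with Slc25a1 added at 0.32 and Scd1 at -0.54. For the interaction 4 passed with that setting. The interaction with the replicate block gave 3 (Acly, Me1 and Mid1ip1), and refeeding in LG2KO gave 3 with Me1 at -0.29. More of all genes passed in some alternatives too, up to 180 between refed genotypes, 3578 for refeeding in LG2KO and 20 for the interaction. As reported these were 69, 1283 and 1 of 18194. The block rests on a number only, since deviations of arrays with the same number correlated at -0.46 to 0.77 between groups, with 6 of 18 pairs over 0.1.

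Members that did not pass changed sign in 19 instances, and the cause was not tested. When 1 array was left out, the refed genotype difference of Acly ran from -0.17 to 0.000538 and that of Elovl6 from -0.14 to 0.22 (above 0 with all arrays, below 0 without control refed replicate 3, and at -0.11 without LG2KO refed replicate 3). For refeeding in LG2KO Acly ran from -0.17 to 0.044 (above 0 without LG2KO fasted replicate 2), and the mean of all probe sets put Acly, Scd1 and Thrsp at 0.042, 0.10 and 0.072. For the interaction, leaving out 1 array gave -0.068 to 0.26 for Acacb, -0.036 to 0.33 for Scd1 and -0.11 to 0.093 for Slc25a1. Acacb was at -0.042 with array weights and -0.0082 without both arrays that stand apart, and Slc25a1 at -0.0057 and -0.029.

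The number of all genes passing moved more, from 8 (without LG2KO refed replicate 3) to 180 between refed genotypes (69 as reported) and from 30 (without LG2KO fasted replicate 1 or 2) to 203 between fasted ones (72). It ran from 695 to 2454 for refeeding in controls (1176), from 697 (without LG2KO refed replicate 3) to 3578 in LG2KO (1283) and from 1 to 20 for the interaction (1).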
